A study of Rattus norvegicus with 8 samples.

Results

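The miR-26 family was followed in the rat kidney left in place after removal of the other kidney. Its members were every probe for miR-26a or miR-26b, either arm, which gave 4 mature arms of the 758 miRNAs on the array and 10 of its 1806 probes. The arms were rno-miR-26a-5p, rno-miR-26b-5p, rno-miR-26b-3p and rno-miR-26a-3p, written below without the species prefix. The 4 nephrectomized and 4 sham-operated samples were right kidneys of male F344/NSlc rats aged 10 weeks, an inbred Fischer strain. The labels place nephrectomized kidneys at day 2 and sham kidneys at day 1, while the study's design text names 2 days. If the labels are right, time and surgery cannot be told apart. No label names an animal; the design text counts 4 rats, and 1 array is treated here as 1 rat. If arrays shared an animal, the p-values would measure technical spread. These are whole kidneys, in which fewer cells of a type and less RNA per cell cannot be told apart.

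A miRNA guides the silencing complex to messenger RNAs that pair with its seed, the bases near its 5′ end. miR-26a and miR-26b share that seed and are known, mostly from cultured mammalian cells and tumours, to restrain proliferation by repressing cell cycle genes and the histone methyltransferase Ezh2. Both lie within genes of small phosphatases that act on RNA polymerase and on the retinoblastoma protein, and by RefSeq position in the rat assembly GRCr8 Mir26a lies in Ctdspl and Mir26b in Ctdsp1. The kidney that remains after nephrectomy enlarges, which is called compensatory growth, so the comparison asks how a growth-restraining family stands in it. The 5p arms are the ones usually loaded as guides, and the 3p arms are the passenger strands.

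The 4 mature sequences, from RefSeq for GRCr8, show what the arms share, with the seed in capitals (bases 2 to 8).
miR-26a-5p: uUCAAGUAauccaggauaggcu
miR-26b-5p: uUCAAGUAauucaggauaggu
miR-26a-3p: cCUAUUCUugguuacuugcac
miR-26b-3p: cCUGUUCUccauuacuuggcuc
The seed UCAAGUA stood in miR-26a-5p and miR-26b-5p and in no other of the 693 mature rat sequences of that table. Counted from the 5′ end of miR-26a-5p, the 5p arms differ at C11U and C21U, so that 19 of 21 aligned bases are identical, and miR-26a-5p is 1 base longer. The 3p arms differ at 7 of 21 aligned positions, one of them inside the seed, A4G, and their seeds were shared with no other mature sequence of the table.

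The probes of the 5p arms are shown because the comparison of the sister miRNAs rests on how each was read. Capitals mark the bases that do not match the sister arm when a probe is laid on the same positions.
miR-26a-5p, 15-base probe: AGcctatcctgGatt
miR-26a-5p, 16-base probe: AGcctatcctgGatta
miR-26b-5p, 20-base probe: AcctatcctgAattacttga
miR-26b-5p, 21-base probe: AcctatcctgAattacttgaa
The miR-26a-5p probes cover bases 8 to 22 and 7 to 22 of the miRNA, with 3 bases that do not match miR-26b-5p. The miR-26b-5p probes cover bases 2 to 21 and 1 to 21, the seed included, with 2 bases that do not match miR-26a-5p. How much signal a sister miRNA gave on these probes was not measured here. The files place the miR-26a-5p probes at chr8:123981643-123981656 and chr8:123981642-123981656 of build rn4, and the miR-26b-5p probes at chr9:73734078-73734096 and chr9:73734077-73734096, spans 1 base shorter than the probes themselves. Exon annotation of rn4 was not used here. miR-26b-3p had 4 probes of 17 to 20 bases on chromosome 9, ending at 73734133, and miR-26a-3p had 2 probes of 16 and 17 bases on chromosome 8, ending at 123981694.

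The arrays differed between the groups before any scaling. Detected miRNAs numbered 224 to 230 on nephrectomized arrays and 242 to 253 on sham arrays. The labelling spike-ins, RNAs added before labelling, read 9.94 to 10.35 log2 units on nephrectomized and 10.52 to 10.61 on sham arrays. The 75th percentile of the detected miRNAs read 7.28 to 7.49 log2 units on nephrectomized and 7.57 to 7.83 on sham arrays (exact two-sided permutation p = 0.0286 for each of the 3 measures, the smallest that 4 against 4 arrays allow). The hybridization spike-ins, RNAs added at hybridization, read 13.30 to 13.35 log2 units on nephrectomized and 13.36 to 13.38 on sham arrays (exact two-sided permutation p = 0.0286). All 8 arrays shared a slide and a scan, but a position index in the file headers had one value for every nephrectomized array and another for every sham array, so array position and group cannot be told apart. The kidney tubule markers miR-192-5p, miR-194-5p and miR-204-5p were tested on these arrays, whereas the striated muscle markers miR-1-3p, miR-133a-3p and miR-206-3p and the liver marker miR-122-5p were detected on too few arrays. Relatives of the muscle markers, miR-133b-3p and miR-1-5p, were detected on 4 nephrectomized and 4 sham arrays (named after their values were seen).

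Values below are processed signal scaled to each array's 75th percentile, and a difference is nephrectomized minus sham on the log2 scale. miR-26a-5p was lower in nephrectomized kidneys, by a mean difference of -8.06%, and its groups did not overlap. miR-26b-5p differed by -3.94%, and its groups overlapped. Neither difference passed the test after adjustment over the 238 miRNAs tested, and 0 of these passed in either direction (0.00%).

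miR-26a-5p, an abundant guide arm, gave scaled signals of 2886, 2938, 2988 and 2836 in nephrectomized kidneys 1 to 4, against 3155, 3100, 3138 and 3276 in sham kidneys 1 to 4. The highest nephrectomized array lay below the lowest sham array. The log2 level was 11.51 ± 0.033 in nephrectomized and 11.63 ± 0.034 in sham kidneys (SD, n = 4 each). The difference of -0.12 ± 0.035 (SE; 95% interval -0.20 to -0.041) had a limma p of 0.00837 and a Benjamini-Hochberg adjusted p of 0.129. Of the 238 tested miRNAs, 10 had groups that did not overlap with nephrectomized kidneys lower (4.20%), and 25 with nephrectomized kidneys higher (10.5%). An unadjusted p under 0.05 was reached by 48 (20.2%), 11 in the lower direction (4.62%) and 37 in the higher direction (15.5%).

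miR-26b-5p, its sister with the same seed, gave 1478, 1516, 1523 and 1448 in nephrectomized kidneys 1 to 4, against 1581, 1512, 1541 and 1576 in sham kidneys 1 to 4. Sham kidney 2 lay below 2 of the nephrectomized kidneys. The log2 level was 10.54 ± 0.034 in nephrectomized and 10.60 ± 0.030 in sham kidneys (SD, n = 4 each), a difference of -0.058 ± 0.034 (SE; 95% interval -0.14 to 0.021). The limma p was 0.129 before and 0.351 after Benjamini-Hochberg adjustment, so a difference was not shown, and the interval still holds a fall as deep as that measured for miR-26a-5p.

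miR-26b-3p, the passenger arm of miR-26b, was read close to background. It was called detected on 2 nephrectomized and 2 sham arrays, and 2 of its 128 spots were well above background. Scaled signals were 3.99, 5.43, 3.55 and 2.91 in nephrectomized kidneys 1 to 4, against 2.97, 3.43, 2.32 and 2.96 in sham kidneys 1 to 4. The groups overlapped, with nephrectomized kidney 2 the highest. The difference was 0.42 ± 0.19 (SE; 95% interval -0.030 to 0.87; limma adjusted p = 0.261), and 0.26 without nephrectomized kidney 2.

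miR-26a-3p, the passenger arm of miR-26a, was detected on 0 of 8 arrays and was not tested. None of its 128 spots was well above background, and the mean processed signals of its 2 probes ran from -1.47 to 0.995. This places both groups at background, so no fold is given for it.

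**Figure D1:**
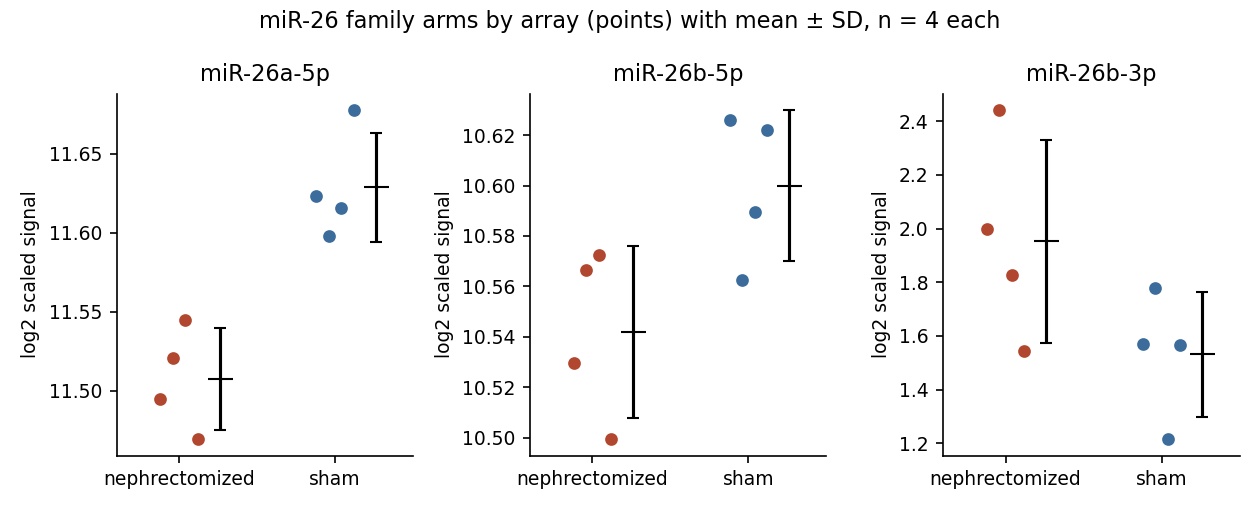
Log2 scaled signal of 3 miR-26 arms on each array, with nephrectomized kidneys left of sham kidneys and each panel on its own axis. Points are arrays and bars are the mean ± SD (n = 4 each); only miR-26a-5p has groups that do not overlap.

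Since the unscaled brightness of the whole array was lower in nephrectomized kidneys, the size of each fall depends on the scaling. Unscaled, miR-26a-5p read 2440 to 2727 in nephrectomized and 3210 to 3802 in sham kidneys, a difference of -24.5%. Unscaled miR-26b-5p read 1259 to 1392 in nephrectomized and 1591 to 1867 in sham kidneys, a difference of -21.1%. Without scaling, the median of all tested miRNAs was also lower, at -0.29. Relative to the median of the tested miRNAs, miR-26a-5p stood at -0.11 and miR-26b-5p at -0.050 whether arrays were scaled to the 75th percentile, to the median, to the spike-ins or not at all, which follows by arithmetic since such a scaling shifts every miRNA of an array alike. With arrays scaled to the labelling spike-ins, miR-26b-5p turned to 0.029 and miR-26a-5p stood at -0.034, while the median of all was 0.080. In limma, miR-26a-5p passed the threshold without scaling (-0.40, limma adjusted p = 0.00824) and with arrays scaled on detected and undetected miRNAs together (-0.23, limma adjusted p = 0.0388). It also passed with normexp background correction (-0.18, limma adjusted p = 0.00304), with mean signal minus local background (-0.14, limma adjusted p = 0.0415) and with an intensity trend in the variance (-0.12, limma adjusted p = 0.0482). miR-26b-5p passed without scaling (-0.34, limma adjusted p = 0.00824) and with normexp (-0.12, limma adjusted p = 0.00979). The calls over all 238 miRNAs under these settings were 1 higher and 18 lower with scaling on all miRNAs, 30 higher and 1 lower with local background, and 7 higher and 1 lower with the intensity trend. Under normexp 156 of the 238 miRNAs passed, 136 higher and 20 lower, and without scaling 161 passed, 1 higher and 160 lower. Quantile normalization gave miR-26a-5p a difference of 0, because it held the same rank on every array.

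**Figure D2:**
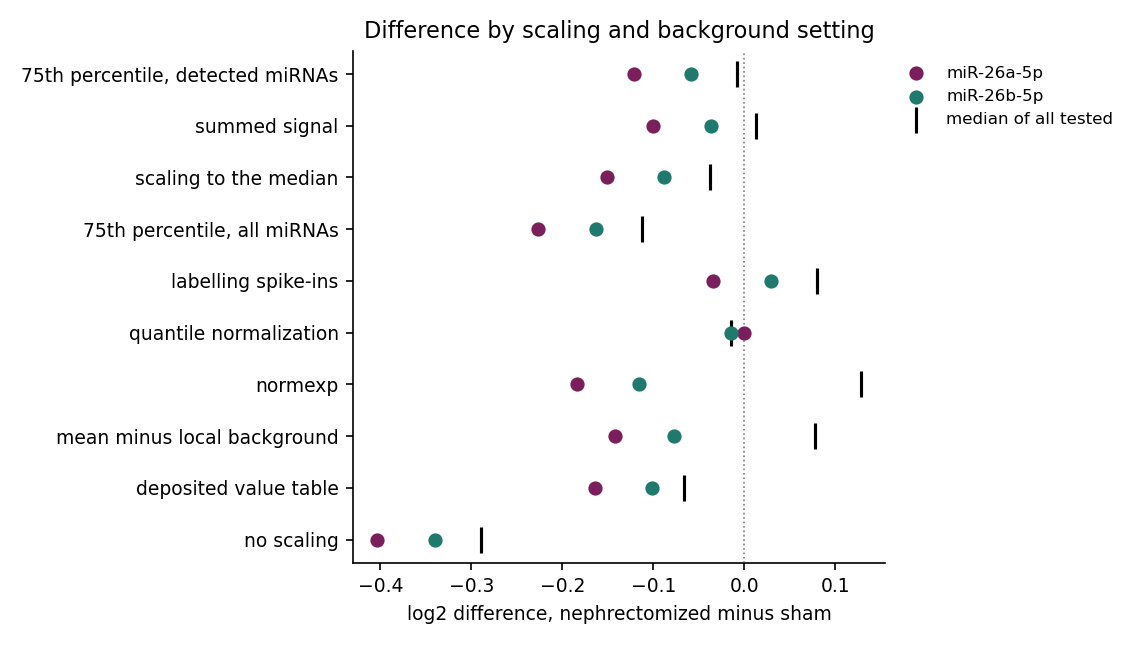
Log2 difference, nephrectomized minus sham, of miR-26a-5p, miR-26b-5p and the median of the tested miRNAs (bars) under 10 scaling and background settings, with the setting used in the text at the top. Outside quantile normalization, both miRNAs lie left of the median in each row and miR-26a-5p lies left of miR-26b-5p.

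Among the 60 brightest tested miRNAs, whose median residual SD between arrays was 0.051 against 0.099 for all tested, 41 had a difference below 0 and the median difference was -0.025. Among these, 2 miRNAs had a lower difference than miR-26a-5p and 17 had a lower one than miR-26b-5p. Among all 238, 38 lay lower than miR-26a-5p and 71 lower than miR-26b-5p, against a median of -0.0077 with 125 below 0 (52.5%). The difference of miR-26b-3p was exceeded by 4 of the 238, at a level where the spread between arrays is wide.

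**Figure D3:**
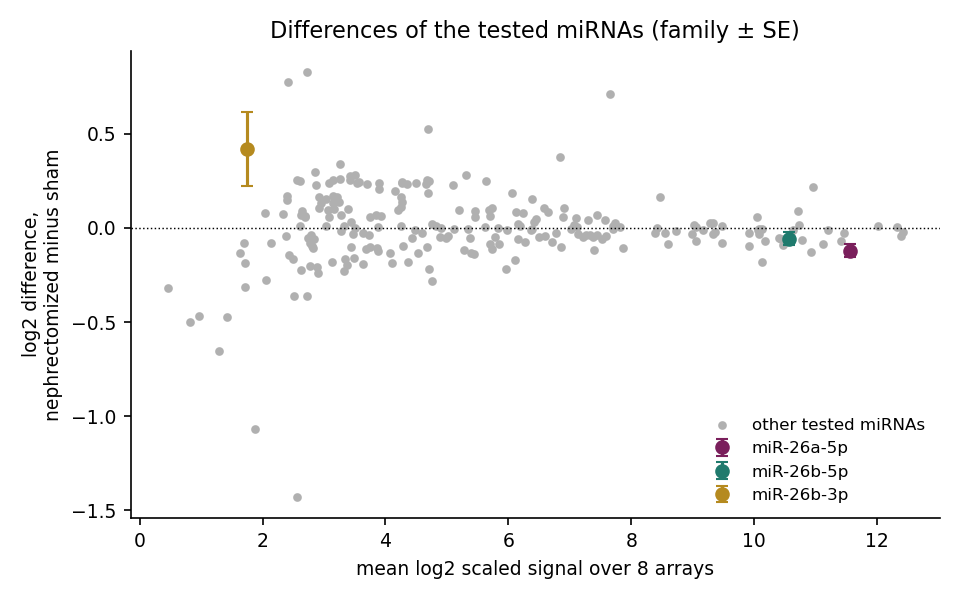
Log2 difference, nephrectomized minus sham, against mean log2 scaled signal over the 8 arrays for the 238 tested miRNAs (grey points), with the 3 tested miR-26 arms in colour (bars are ± SE). The 5p arms lie just below 0 at the bright end, and miR-26b-3p lies at 0.42 among the dim miRNAs, where points scatter widely.

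Each 5p probe was printed 8 times per array, and all 128 spots of miR-26a-5p and all 128 of miR-26b-5p were well above background. Spots of a probe on an array had coefficients of variation of 0.477% to 5.33% for miR-26a-5p and 0.317% to 5.82% for miR-26b-5p. Outlier spots, left out of the means, were 21 of 128 for miR-26a-5p and 12 of 128 for miR-26b-5p. The probes of each 5p arm gave differences of the same sign.

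The 15-base probe of miR-26a-5p differed by -0.15 ± 0.029 and the 16-base probe by -0.11 ± 0.024 (SE; limma adjusted p = 0.0935 for each over 534 probes). On both probes the groups did not overlap. The 20-base probe of miR-26b-5p differed by -0.052 ± 0.027, with overlap, and the 21-base probe by -0.063 ± 0.022 (limma adjusted p = 0.345 and 0.177), without overlap. How many of all 534 probes had groups without overlap was not counted. Of the 238 tested miRNAs, 35 had such groups in either direction (14.7%). The 4 probes of miR-26b-3p were read at or close to background, with no spot of the 17-, 18- and 19-base probes and 2 spots of the 20-base probe well above it, so their signs carry little. Those of 17 and 20 bases stood at 0.76 and 0.63, and those of 18 and 19 bases at -0.16 and -0.19. On the 17- and 18-base probes some arrays lay at the floor (for 17 bases, sham 1, 3 and 4), so those differences depend on the floor. None of the 8 probes passed the threshold.

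**Figure D4:**
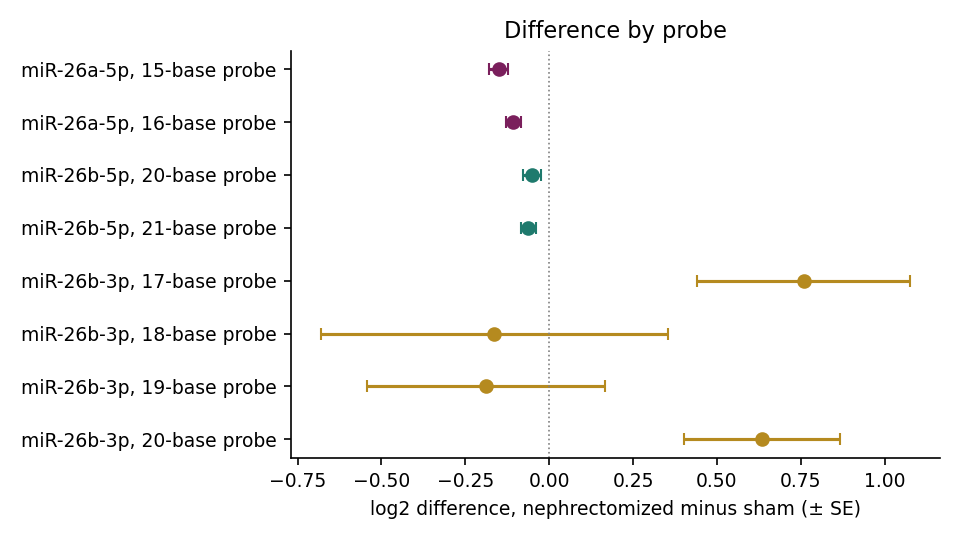
Log2 difference, nephrectomized minus sham, of each probe of the tested miR-26 arms (points ± SE, 4 arrays in each group). The 4 probes of the 5p arms lie between -0.15 and -0.052, while the 4 probes of miR-26b-3p, read at or close to background, lie on both sides of 0.

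The relation of miR-26a-5p to miR-26b-5p was read as the log2 difference between them on the same array, which is free of array scaling. The level of that difference also holds the unequal response of the probes, so only its change between groups is read. Nephrectomized arrays 1 to 4 gave 0.966, 0.954, 0.973 and 0.970, against 0.997, 1.04, 1.03 and 1.06 for sham arrays 1 to 4. Every nephrectomized array lay below every sham array. The ratio of miR-26a-5p to miR-26b-5p thus differed by -4.27% in nephrectomized kidneys. On the log2 scale the difference was -0.063 ± 0.013 (SE, n = 4 each). Its two-sided p in the exact permutation test was 0.0286, the lowest this design allows, and 0.0571 after Benjamini-Hochberg adjustment over the 3 pairs of arms.

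The choice of probe bears on that value. Of the 4 pairs of a miR-26a-5p probe with a miR-26b-5p probe, 3 gave differences of -0.099, -0.088 and -0.054 (exact permutation p = 0.0286 each). The pair of the longest probes gave -0.043, with overlapping groups (exact permutation p = 0.0857). Between the 2 probes of miR-26a-5p itself, the 15-base minus the 16-base, the change was -0.044 ± 0.014 (SE; exact permutation p = 0.0571). That change within a single miRNA is about the size of the change between the sister miRNAs, and its part in the result was not tested. Between the 2 probes of miR-26b-5p it was 0.011 (exact permutation p = 0.314). Under quantile normalization the change of the miR-26a-5p to miR-26b-5p ratio was 0.014, in the other direction. There miR-26a-5p was held at 0 by its constant rank, so this value is only the miR-26b-5p difference of -0.014 with its sign reversed.

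**Figure D5:**
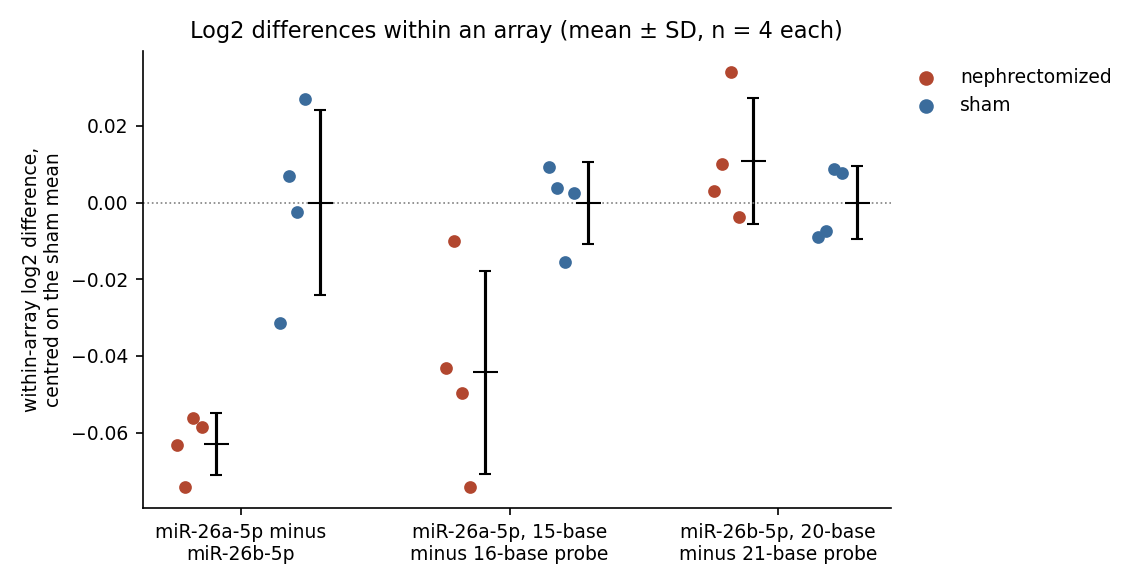
Within-array log2 differences, centred on the sham mean, for miR-26a-5p minus miR-26b-5p and for the probe pairs within each miRNA, nephrectomized arrays left of sham arrays. Points are arrays and bars are the mean ± SD (n = 4 each); the groups are apart for the pair of miRNAs (-0.063) and overlap for both pairs of probes.

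From array to array within a group, the 5p arms tended to stand high or low on the same arrays. Because the groups did not overlap for miR-26a-5p, the correlation was taken over each array's deviation from its group mean. Over the 8 arrays, Pearson's r was 0.849, with an exact permutation p of 0.0191 over re-pairings within groups (0.0573 adjusted over 3 relations). Those p-values count re-pairings with an r at least as large in either direction; doubling the smaller tail instead gave 0.0104 (0.0313 adjusted), so the call depends on that choice. Spearman's rho was 0.810 (exact permutation p = 0.0347, 0.104 adjusted). Without the 2 arrays whose miR-26a-5p deviation was farthest from the median, nephrectomized 3 and sham 4, r was 0.929. Leaving out 1 array took the unadjusted exact p past 0.05 in 2 of 8 cases, to 0.0764 without nephrectomized 4 (r = 0.780) and to 0.0556 without sham 3 (r = 0.845). miR-26a-5p and miR-26b-5p share an array and its scaling factor in each point. No r was taken for other pairs of bright miRNAs, so 0.849 cannot be called particular to the sisters. The other 2 relations, with miR-26b-3p, gave r of 0.236 for miR-26a-5p and 0.345 for miR-26b-5p, but that arm was read close to background, so these values say nothing about whether the arms move together.

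Likeness to other miRNAs was measured as the root mean square difference of centred log2 levels over the 8 arrays, among the 59 others of the 60 brightest tested miRNAs. Each miRNA was centred on its mean over all 8 arrays, so its difference between the groups is part of this measure. The 5 miRNAs most like miR-26a-5p were miR-195-5p (0.0323), miR-26b-5p (0.0352), miR-29a-3p (0.0375), miR-30a-5p (0.0375) and miR-23a-3p (0.0401), against a median of 0.0725. For miR-26b-5p they were miR-23a-3p (0.0217), miR-30c-5p (0.0273), miR-497-5p (0.0312), miR-30a-3p (0.0332) and miR-26a-5p (0.0352), against a median of 0.0525. Each 5p arm was thus among the 5 miRNAs most like its sister, though neither was the closest.

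Other growth-restraining miRNAs, namely the miR-15 and miR-16 relatives, most of let-7, miR-34, miR-29, miR-143 and miR-145, were set beside the family. The list left out let-7g-5p, which stood at -0.012 (named after its value was seen). Of 23 tested, 17 had a difference below 0 and 6 above, with a median of -0.029 against -0.0077 for all tested miRNAs, and 0 passed the adjusted threshold. Of all 238 tested, 125 were below 0 (52.5%). Among the 60 brightest tested miRNAs, 41 were below 0 with a median of -0.025, which is near that of the list. miR-503-5p, a miR-16 relative that represses cyclins, stood at -0.36 ± 0.099 and miR-195-5p, of the same group, at -0.11 ± 0.032 (SE). miR-503-5p was dim, with mean log2 levels of 2.33 in nephrectomized and 2.70 in sham kidneys (limma adjusted p = 0.120). Of the listed miR-16 relatives, only miR-15b-5p stood above 0, at 0.16, with groups that did not overlap. Such groups, with nephrectomized kidneys higher, were found for 25 of the 238 tested (10.5%). The remaining relatives stood closer to 0 than miR-195-5p, with miR-497-5p at -0.061, miR-15a-5p at -0.029, miR-16-5p at -0.014 and miR-322-5p at -0.0047. Of these, miR-15b-5p, miR-15a-5p, miR-16-5p and miR-322-5p were named after their values were seen. Of growth-promoting miRNAs, 10 of 12 listed were tested, with 7 above 0, 3 below and a median of 0.028, and 0 passed. Of all 238 tested, 113 were above 0. miR-21-5p, known to rise in injured kidney, stood at 0.22 and miR-93-5p, of the miR-106b cluster, at 0.15. Of 3 miRNAs listed as repressing Ezh2 beside miR-26, miR-138-5p was not tested, miR-101b-3p stood at -0.058 and miR-101a-3p at -0.042, and neither passed.

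Markers of other cell types were read on the same arrays, and 0 of the 15 tested passed the adjusted threshold. The summed scaled signal of the 4 leukocyte markers ran from 252 to 288 in nephrectomized and from 268 to 291 in sham kidneys. Singly, miR-155-5p stood at -0.16, miR-142-3p at -0.10, miR-150-5p at -0.085 and miR-223-3p at 0.031. The sum of the 2 endothelial markers, both forms of miR-126a, ran from 1136 to 1205 in nephrectomized and from 1203 to 1286 in sham kidneys. That of the 3 tubule markers ran from 2272 to 2322 in nephrectomized and from 2183 to 2219 in sham kidneys, without overlap. That sum rests on its brightest member, miR-192-5p, at 0.088, whereas miR-194-5p stood at 0.0057 and miR-204-5p at -0.13. Of the 238 tested miRNAs, 25 had groups without overlap and nephrectomized kidneys higher (10.5%). The red cell marker miR-451-5p ran from 44.8 to 111 in nephrectomized and from 41.9 to 90.6 in sham kidneys. The sum of the 4 smooth muscle and fibroblast markers ran from 1155 to 1304 in nephrectomized and from 1205 to 1272 in sham kidneys. Its brightest member, miR-143-3p, stood at 0.0094, miR-214-3p at 0.046, miR-199a-3p at -0.017 and miR-145-5p at -0.025. The neuron marker miR-9a-5p ran from 5.08 to 8.93 in nephrectomized and from 7.67 to 9.68 in sham kidneys. The red cell marker miR-144-3p and the neuron marker miR-124-3p were not tested. The part of these markers in the miR-26 values was not tested.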

How the data were processed

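The miRNAs of 8 kidneys was measured on one-colour (Cy3) rat miRNA arrays. The deposited scanner tables hold linear intensity, and per the file headers the processed intensity was background-subtracted and spatially detrended by Agilent Feature Extraction, version 12.0.3.1. They also hold other columns of 0 or 1 (detected, well above background, outlier). The deposited series table holds log2 values, which a rebuild from total gene signal, centred on each miRNA's median, matched to within 1.1e-05; the rule behind its shift per array stays unknown. Its column medians ran from -0.25 to 0.17, and it was used as an alternative.

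Control spots were left out, as were outlier spots, which were 8.10% to 9.01% of the miRNA spots per array. Spots were averaged per probe and probes per miRNA, and arrays were brought to a common 75th percentile, taken over the 214 miRNAs that all 8 arrays detected. Lower values were raised to a floor of 1 before log2 was taken. The 238 miRNAs detected on at least 4 arrays were tested with limma 3.58.1 (R 4.3.3); p-values are two-sided and were adjusted by Benjamini-Hochberg, with calls at 0.05. Single values used exact permutation tests by full enumeration (numpy 2.4.6), with the smaller tail doubled for differences between groups. The fit was tested on simulated data. The number of arrays limits the precision, with a median standard error of 0.067.

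Members and lists were chosen with earlier results of these data known. The miRNAs named are the members, the 5 most like each 5p arm, the 2 lowest-p members of each list, and the cell type markers. Others are marked in the text as named after their values were seen. Alternatives covered scaling, background, signal column, spots, probes, filter, moderation, the replicate number as a block and leaving out each array. Scaling to summed signal and single probe pairs were added after seeing the data.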

Additional observations from a re-analysis of the deposited data

Results flagged for a closer look

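No array stood apart from its group in Dixon's test at the 95% level in the 37 sets of 4 arrays searched (levels of the arms and probes, and their ratios), where chance alone gives about 1 in 20. Another 3 sets, of miR-26b-3p probes, held values at the floor, which have no order, and were not searched.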

How the results depend on the processing

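miR-26a-5p passed the adjusted threshold with the 75th percentile over all miRNAs (-0.23, limma adjusted p = 0.0388), without scaling (-0.40), with normexp (-0.18), with mean signal minus local background (-0.14) and with an intensity trend (-0.12, adjusted p = 0.0482). It was 0 under quantile normalization, where its rank was constant. miR-26b-5p passed without scaling (-0.34) and with normexp (-0.12), and was 0.029 with spike-ins. miR-26b-3p passed with normexp (0.23). The ratio of miR-26a-5p to miR-26b-5p was -0.043 with the longest probes and 0.014 under quantile normalization, where miR-26a-5p could not move. Leaving out 1 array gave -0.13 to -0.10 for miR-26a-5p, -0.071 to -0.044 for miR-26b-5p, 0.26 to 0.56 for miR-26b-3p, -0.073 to -0.054 for the ratio (exact p = 0.0571 each, the smallest that 3 against 4 arrays allow) and 0.780 to 0.952 for the correlation. The correlation has no value under quantile normalization.

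The count past the threshold, 0 of 238 (48 at an unadjusted p under 0.05), was 161 without scaling (1 higher, 160 lower), 156 with normexp (136 higher, 20 lower), 31 with mean minus local background (30 higher, 1 lower), 25 with summed signal, 19 with the 75th percentile over all miRNAs (1 higher, 18 lower), 8 with an intensity trend (7 higher, 1 lower), 7 with total gene signal, 5 with the longest probe and with the deposited table, 3 with array weights, and 1 with quantile normalization, with spike-ins and with miRNAs detected on all 8 arrays, which leaves miR-26b-3p untested. Leaving out 1 array gave 0 to 5. The cause of these changes was not tested. The median of all tested miRNAs moved to -0.11, -0.29, 0.080, 0.13 and 0.078 with the percentile over all miRNAs, no scaling, spike-ins, normexp and mean minus local background. The miR-26b-3p probes of 19 and 18 bases, at -0.19 and -0.16, go against the mean of its probes.

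Deviations of same-numbered arrays gave r of 0.042, -0.091, 0.28 and -0.24, which shows no common pairing but cannot exclude one. The replicate number equals a second position index in the file headers, so same-numbered arrays share that index. With the replicate number as a block, miR-26a-5p stayed at -0.12 (adjusted p = 0.248), and the ratio at -0.063 had an exact sign-flip p of 0.125, the smallest 4 pairs allow. A block for the slide was not possible, since all arrays shared 1 slide. With no filter, limma warned that most of the residual variances were 0, so that fit is unreliable. Signal over background limits the 3p arms.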
